A study of Rattus norvegicus with 6 samples.

Results

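The p53 targets and apoptosis machinery described here are 37 genes, measured by bulk RNA-seq in primary cells of the rat nucleus pulposus, the soft centre of a spinal disc. The list was chosen by symbol: targets and regulators of the transcription factor p53, members of the BCL-2 family, caspases with their activators, and inhibitors of caspases. Of the 37 symbols, 36 were found among the 17139 genes of the count table through their Entrez identifiers, and 35 had enough counts to be tested. Bcl2 was not matched to a row and was not analysed here. Perp, a p53 target of the desmosome, had 0 counts in all 6 libraries, which allows up to 3 counts in each.

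Polyadenylated RNA was sequenced from cells left untreated (control, n = 3 libraries) and from cells treated with bradykinin at 10 µM (n = 3 libraries). Bradykinin is one of the kinins, peptides that as a family act through the B1 and B2 receptors. The cells carry no named genetic change, and the treatment time and the age of the animals are not given in the sources used here. The treated samples are titled B2R, while their treatment label names bradykinin, which was followed. The stated aim concerned the response to bradykinin, in particular cell senescence and the matrix.

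p53 is held at a low level by MDM2 and MDM4, and when DNA damage or other stress releases it, it switches on genes that stop the cell cycle, repair DNA, or lead to apoptosis. In the mitochondrial route to apoptosis, BH3-only proteins relieve the block set by pro-survival BCL-2 proteins, BAX and BAK1 then open the outer mitochondrial membrane, and cytochrome c assembles with APAF1 and caspase-9. Loss of nucleus pulposus cells through apoptosis and senescence is a known feature of disc degeneration.

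Total counts ranged from 12883067 to 15462764 per library. Levels are given as CPM (count share times 1e6, with library sizes scaled by TMM factors), and differences as log2 fold changes ± SE, bradykinin over control. The threshold for a call was an adjusted p of 0.05 in edgeR's quasi-likelihood test, adjusted over all tested genes. The labels do not say whether replicates came from separate animals or cultures, so the p-values reflect library-to-library spread only, and that spread may be technical. In bulk RNA, fewer cells of a kind and less RNA per cell cannot be told apart. The third bradykinin library was unlike the rest. Its Spearman correlations with them, across genes, were 0.960 to 0.963, while all other pairs gave 0.992 to 0.996. Log2 fold changes are therefore given with it and without it, and where 2 stand in parentheses the first is from all 6 libraries. The labelled tissue was checked against 13 nucleus pulposus or notochord markers, of which 9 had a row and 8 were tested. Their levels were mixed and do not settle the tissue, whose name here follows the labels. The transcription factor genes Foxf1, Pax1 and Sox9 were at 15.3 to 116.5 CPM and Acan at 257 to 511 CPM, while Car3 and Cd24 were at 2.60 to 8.49 CPM, Car12 and Krt8 at 0.45 to 1.76 CPM, and the cartilage collagen Col2a1 had 0 to 2 counts per library. Krt18, Krt19, Tbxt and Shh were not analysed here. Without bradykinin replicate 3, Acan was higher with bradykinin (0.95 ± 0.04, edgeR adjusted p = 1.6e-07) and Car3 lower (-1.44 ± 0.19, adjusted p = 0.0010), while neither passed in 6 libraries (0.74 ± 0.19 and -1.34 ± 0.18, adjusted p = 0.626 and 0.383). Of 4 markers of annulus or tendon, Mkx and Scx were at 52.4 to 91.4 CPM and Col1a1 at 37621 to 48671 CPM, with Tnmd at 0.35 to 1.11 CPM. The endothelial markers with a row (Pecam1, Kdr and Tek) stayed at or below 0.80 CPM in every library, as did the macrophage markers Cd68 and Csf1r at 0.39 CPM or less, with Cd14 at 8.31 to 13.8 CPM.

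The p53 and apoptosis genes did not move together with bradykinin. In all 6 libraries, 0 of the 35 tested genes passed, where 0% of all 12413 tested genes passed, and 1 of the 35 had an unadjusted p under 0.05 (6.84% of all genes). DESeq2 called 1 of the 35, Plk2, where it called 0.354% of all genes. Without bradykinin replicate 3, 1 of the 35 was called, again Plk2 (3.1% of all 12536 tested genes were): 0 rose and 1 fell, against 1.95% and 1.15% of all genes. In those 5 libraries 2 of the 35 had an unadjusted edgeR p under 0.05 (15.2% of all genes). DESeq2 also called Plk2 alone there, among the 29 of the 35 to which it gave an adjusted p. It called 4.01% of the 8647 genes that had one. The median log2 fold change of the 35 genes was -0.01 in 6 libraries (all genes 0.01) and 0.02 without bradykinin replicate 3 (all genes 3.7e-05). Positive and negative values were nearly balanced, 17 and 18 in 6 libraries and 19 and 16 in the 5.

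**Figure D1:**
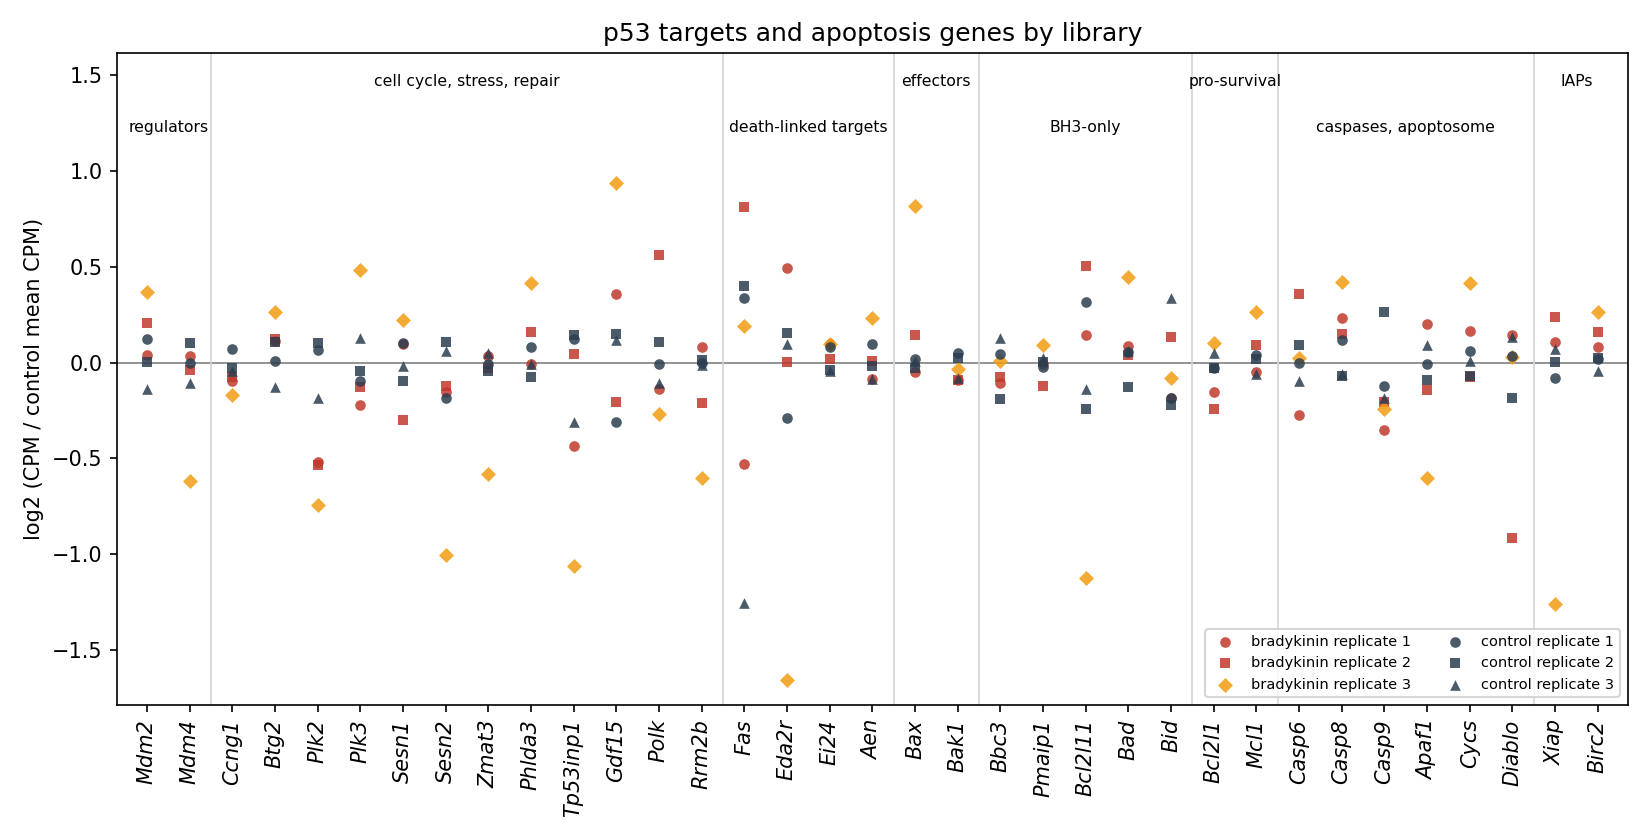
Level of each of the 35 tested genes in each of the 6 libraries, as log2 of its CPM over its control mean (vertical axis), grouped by role. The bradykinin points of Plk2 all lie below the controls, while for most other genes bradykinin replicate 3 (diamonds) lies away from the other 5 libraries, as for Bax, Xiap and Eda2r.

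Plk2, which encodes a polo-like kinase of the early growth and stress response and is a p53 target, was the clearest difference. Its bradykinin libraries (replicates 1 to 3 in that order, here and below) held 29.2, 28.9 and 24.99 CPM, and its control libraries held 43.8, 45.0 and 36.9 CPM. Every bradykinin library was below every control library, and the groups did not overlap. The controls of Plk2 varied more than those of 94.6% of the 500 tested genes nearest to it in control level. The log2 fold change was -0.53 ± 0.09 without bradykinin replicate 3, where Plk2 fell (edgeR adjusted p = 0.0078; 95% interval -0.72 to -0.33). In 6 libraries it was -0.60 ± 0.12 and did not pass with edgeR (adjusted p = 0.561), while DESeq2 called it lower (-0.60 ± 0.16, adjusted p = 0.0336). Leaving out control replicate 1 or control replicate 2 from the 5 libraries ended the call (-0.50 ± 0.10, edgeR adjusted p = 0.0571, and -0.47 ± 0.10, adjusted p = 0.0514). The change was smaller than the absolute log2 fold change of 1 that the study set for its own calls.

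Plk2 is shown with its promoter because it was the only gene of the list to pass. The RefSeq window of 250 bases before to 50 bases after its start lies on the forward strand of assembly GRCr8 at chr2:43702286-43702585, and its capitals mark a full cyclic AMP response element, TGACGTCA, that begins 66 bases before the start.
Plk2: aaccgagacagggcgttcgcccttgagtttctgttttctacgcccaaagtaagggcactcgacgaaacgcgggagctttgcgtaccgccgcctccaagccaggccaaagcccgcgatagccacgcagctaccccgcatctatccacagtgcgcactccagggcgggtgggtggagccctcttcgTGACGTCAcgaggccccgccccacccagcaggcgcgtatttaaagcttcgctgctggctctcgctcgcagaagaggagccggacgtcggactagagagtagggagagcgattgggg
The element reads the same on both strands and was searched for after the Plk2 window had been seen. It was present in 2 of 34 windows of the list, those of Plk2 and Btg2 (5.88%), and in 3.09% of 10845 windows of tested genes.

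The p53 half-site, a stretch of 10 bases that is its own reverse complement in pattern, was present in 4 of the 34 windows (11.8%), against 6.51% of the windows of tested genes. Only exact matches were counted, to the pattern of 3 purines, C, 2 of A or T, G and 3 pyrimidines. A pair of exact matches spaced by up to 13 bases was present in 0 of the 34 and in 0.0461% of the windows of tested genes. Sites with a mismatch were not searched for, so a window without such a pair may still hold a p53 site. The windows cover 30 of the 37 genes, and p53 elements are also known in first introns, which the windows do not reach. The matches, in capitals within 30 bases of GRCr8 sequence, are shown because p53 is the regulator that the targets of the list have in common. They lie at chr1:142224493-142224522 on the forward strand (Aen), chr8:44699431-44699460 on the reverse strand (Ei24), chr10:25685089-25685118 on the reverse strand (Ccng1) and chr20:46948537-46948566 on the forward strand (Sesn1).
Aen: agccgaagccGGGCATGTCCgggcaagcaa
Ei24: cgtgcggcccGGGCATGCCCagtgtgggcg
Ccng1: agacctgcccGGGCAAGCCTtggcattgaa
Sesn1: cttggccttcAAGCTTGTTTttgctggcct
None of these 4 genes passed in either set of libraries.

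The negative regulators of p53 did not pass. Mdm2, the ubiquitin ligase of p53 and itself a p53 target, was at 51.2, 57.5 and 64.2 CPM with bradykinin and at 54.2, 49.98 and 45.3 CPM in controls. The groups overlapped, since control replicate 1 was above bradykinin replicate 1 (0.21 ± 0.12 in 6 libraries and 0.13 ± 0.08 without bradykinin replicate 3). Mdm4, its partner, was at 18.1, 17.2 and 11.5 CPM with bradykinin and at 17.7, 18.95 and 16.4 CPM in controls. Its log2 fold change of -0.18 ± 0.19 rested on bradykinin replicate 3, and without that library it was -5.9e-04 ± 0.11 (95% interval -0.23 to 0.23).

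Among 12 p53 targets in the cell cycle, stress and repair, 1 passed in the 5 libraries (Plk2) and 0 in 6. Ccng1, an atypical cyclin that is among the most p53-responsive genes, was at 91.3, 92.5 and 86.7 CPM with bradykinin and at 102.7, 95.5 and 94.6 CPM in controls. Its groups did not overlap, with bradykinin on the lower side, but the difference was small (-0.11 ± 0.09 and -0.09 ± 0.06) and did not pass (edgeR adjusted p = 0.737 and 0.529). Btg2, an antiproliferative early-response gene, lay the other way, at 26.6, 26.8 and 29.5 CPM with bradykinin and at 24.7, 26.5 and 22.5 CPM in controls (0.17 ± 0.11 and 0.12 ± 0.09, adjusted p = 0.737 and 0.612). Groups that do not overlap were common in these data: 8.84% of all tested genes were higher with bradykinin in every library and 8.71% lower, and in this list 3 were higher (Btg2, Casp8 and Birc2) and 3 lower (Ccng1, Plk2 and Casp9). Without bradykinin replicate 3 the list had 4 higher (16.2% of all genes) and 6 lower (15.4%).

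Bradykinin replicate 3 lay outside the range of the other 5 libraries for all 12 p53 targets in the cell cycle, stress and repair (75.5% of all genes). Sesn2, a sestrin that restrains mTORC1 under stress, had 63.9, 65.3 and 35.5 CPM with bradykinin, the last being replicate 3, against 62.5, 76.7 and 74.3 CPM in controls (-0.38 ± 0.23 with replicate 3, -0.14 ± 0.08 without). Gdf15, a secreted stress factor, was at 5.28, 3.56 and 7.87 CPM with bradykinin and at 3.31, 4.56 and 4.46 CPM in controls (0.44 ± 0.30 and 0.10 ± 0.24). Plk3, a stress-activated relative of Plk2, was at 15.7, 16.7 and 25.6 CPM with bradykinin and at 17.1, 17.8 and 20.01 CPM in controls. Its log2 fold change changed sign with that library, 0.08 ± 0.20 with it and -0.17 ± 0.11 without. Zmat3, an RNA-binding p53 target, showed 22.1 CPM in replicate 3 and 32.1 to 34.3 CPM in the other 5 libraries (-0.17 ± 0.17 and 0.0028 ± 0.08).

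Phlda3, an inhibitor of AKT signalling, was at 189, 213 and 254 CPM with bradykinin and at 201, 180.4 and 189 CPM in controls (0.20 ± 0.13 and 0.08 ± 0.06). Rrm2b, the p53-inducible ribonucleotide reductase subunit, had 10.2, 8.36 and 6.38 CPM with bradykinin and an even 9.60 to 9.76 CPM in controls (-0.22 ± 0.19 and -0.06 ± 0.14). Sesn1, Tp53inp1, an autophagy-linked p53 cofactor, and Polk, a translesion DNA polymerase, had log2 fold changes of 0.02 ± 0.17, -0.42 ± 0.30 and 0.10 ± 0.25 in 6 libraries. Without bradykinin replicate 3 they were -0.09 ± 0.15, -0.17 ± 0.24 and 0.26 ± 0.21, and none passed.

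Of 5 p53 targets linked to cell death, 4 were tested and 0 passed. Fas, the death receptor for Fas ligand, varied more among controls than any of the 500 tested genes nearest to it in control level. It was at 39.4, 41.2 and 13.05 CPM in control replicates 1 to 3, a 3.16-fold range, and at 21.6, 54.9 and 35.6 CPM in bradykinin replicates 1 to 3. The groups overlapped over most of their range, and the log2 fold change was 0.26 ± 0.46, or 0.30 ± 0.38 (95% interval -0.51 to 1.12) without bradykinin replicate 3. Eda2r, a TNF-family receptor, was at 3.47, 2.47 and 0.781 CPM with bradykinin and at 2.01, 2.74 and 2.64 CPM in controls, with only 12 counts in bradykinin replicate 3 (-0.16 ± 0.47 with it and 0.27 ± 0.27 without). Ei24, an endoplasmic reticulum protein, was steady, at 45.6 to 48.2 CPM with bradykinin and 43.7 to 47.6 CPM in controls (0.07 ± 0.09 and 0.06 ± 0.07). Aen, an apoptosis-enhancing nuclease, was at 24.8 to 30.98 CPM and 24.9 to 28.2 CPM, and its log2 fold change changed sign with bradykinin replicate 3 (0.06 ± 0.12 and -0.04 ± 0.09).

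**Figure D2:**
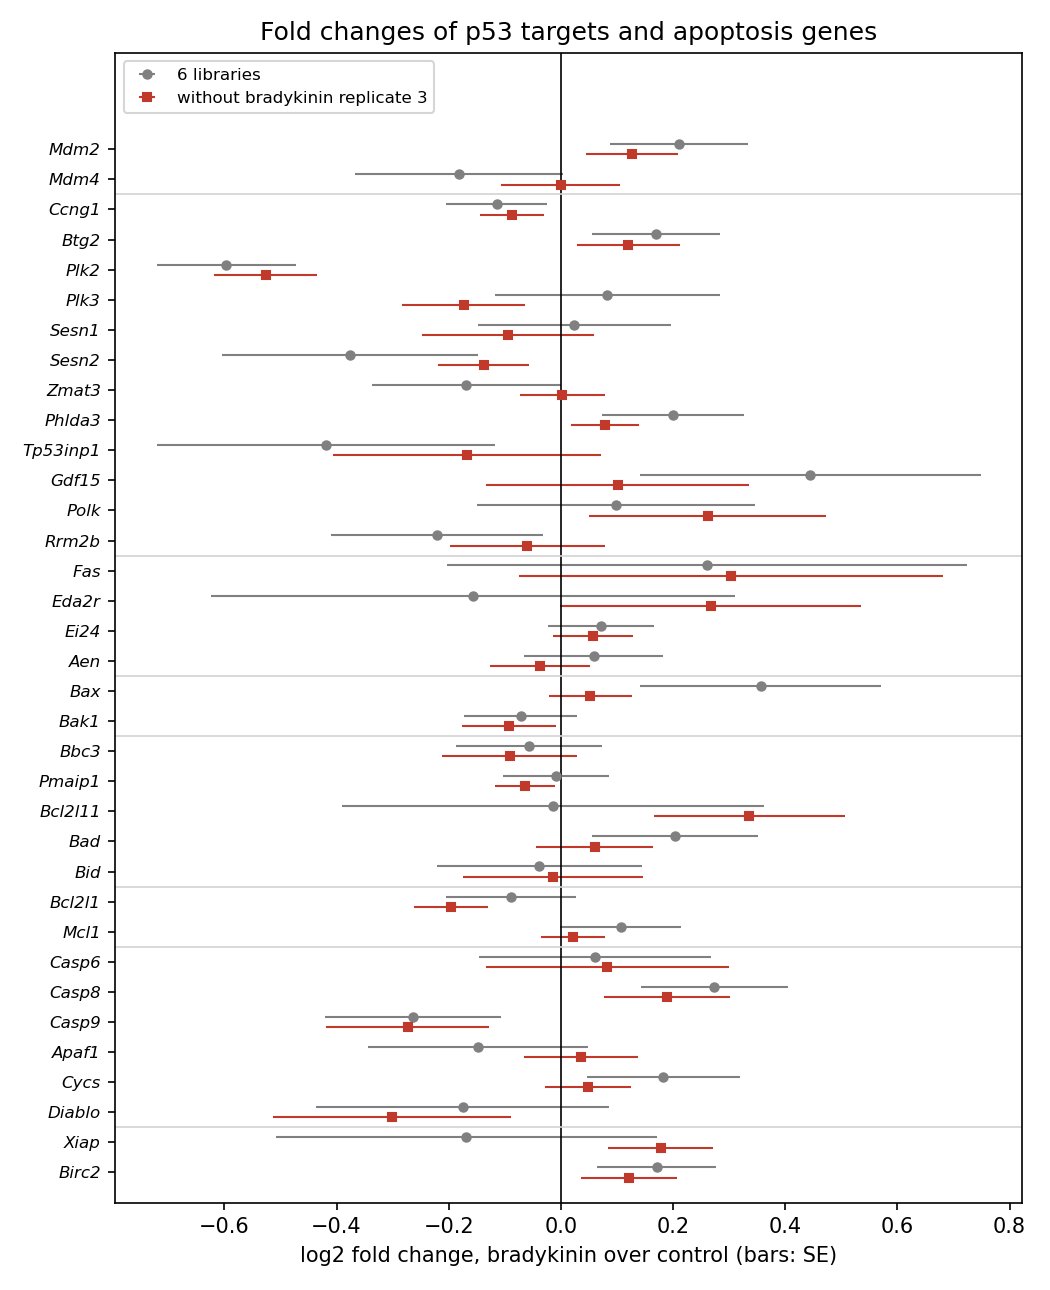
Log2 fold change (horizontal axis, bradykinin over control, bars are SE) of each of the 35 tested genes with all 6 libraries (grey circles) and without bradykinin replicate 3 (red squares). Plk2 is the only gene at or below -0.5 in both, and the values of Bax, Xiap and Bcl2l11 move by 0.30 or more between the 2 sets.

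The pore-forming effectors did not pass. In bradykinin replicates 1 and 2 Bax had 42.3 and 48.5 CPM, around its controls at 44.4, 43.0 and 44.1 CPM, among the steadiest control values of the list (CV 1.65%). Bradykinin replicate 3, at 77.4 CPM, was far above the other 5 libraries. The log2 fold change was 0.36 ± 0.21 with that library (edgeR adjusted p = 0.737) and 0.05 ± 0.07 without it (95% interval -0.11 to 0.21). Bak1, the second effector, was at 26.01, 26.01 and 27.1 CPM with bradykinin and at 28.8, 28.2 and 26.2 CPM in controls (-0.07 ± 0.10 and -0.09 ± 0.08).

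None of the 5 BH3-only genes passed. Pmaip1, which encodes NOXA and is a p53 target, was at 125, 116 and 134 CPM with bradykinin and at 124, 126 and 128 CPM in controls (-0.01 ± 0.09 and -0.06 ± 0.05). Bbc3, which encodes PUMA, a p53-induced killer protein, was at 14.7, 15.04 and 15.9 CPM with bradykinin and at 16.4, 13.9 and 17.3 CPM in controls (-0.06 ± 0.13 and -0.09 ± 0.12). The bradykinin values of Pmaip1 lay on both sides of its controls, and those of Bbc3 lay within its control range. Without bradykinin replicate 3 the 95% intervals were -0.18 to 0.05 and -0.35 to 0.17.

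Bcl2l11, which encodes BIM, scattered widely, at 11.7, 15.1 and 4.88 CPM with bradykinin and at 13.2, 8.99 and 9.67 CPM in controls. Its log2 fold change was -0.01 ± 0.38 with bradykinin replicate 3 and 0.34 ± 0.17 without it (adjusted p = 0.382). Bad, which is silenced by survival kinases, was at 18.6, 18.0 and 23.95 CPM and at 18.2, 16.1 and 18.3 CPM (0.20 ± 0.15 and 0.06 ± 0.10). Bid, which caspase-8 cleaves to pass the death receptor signal on to mitochondria, had controls at 16.2, 15.9 and 23.3 CPM, a spread that held all of its bradykinin values (16.2, 20.3 and 17.4 CPM), with log2 fold changes of -0.04 ± 0.18 and -0.01 ± 0.16.

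The pro-survival genes tested were Bcl2l1, which encodes BCL-XL, and Mcl1. With 50.7 and 47.7 CPM, bradykinin replicates 1 and 2 of Bcl2l1 were below the controls at 55.3, 55.2 and 58.4 CPM, while bradykinin replicate 3, at 60.4 CPM, was above them. The difference was -0.20 ± 0.07 without that library and missed the threshold (edgeR adjusted p = 0.155), and it was -0.09 ± 0.12 with it. Mcl1, a short-lived survival protein gene, was at 122, 135 and 152 CPM with bradykinin and at 130.0, 128 and 122 CPM in controls (0.11 ± 0.11 and 0.02 ± 0.06).

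**Figure D3:**
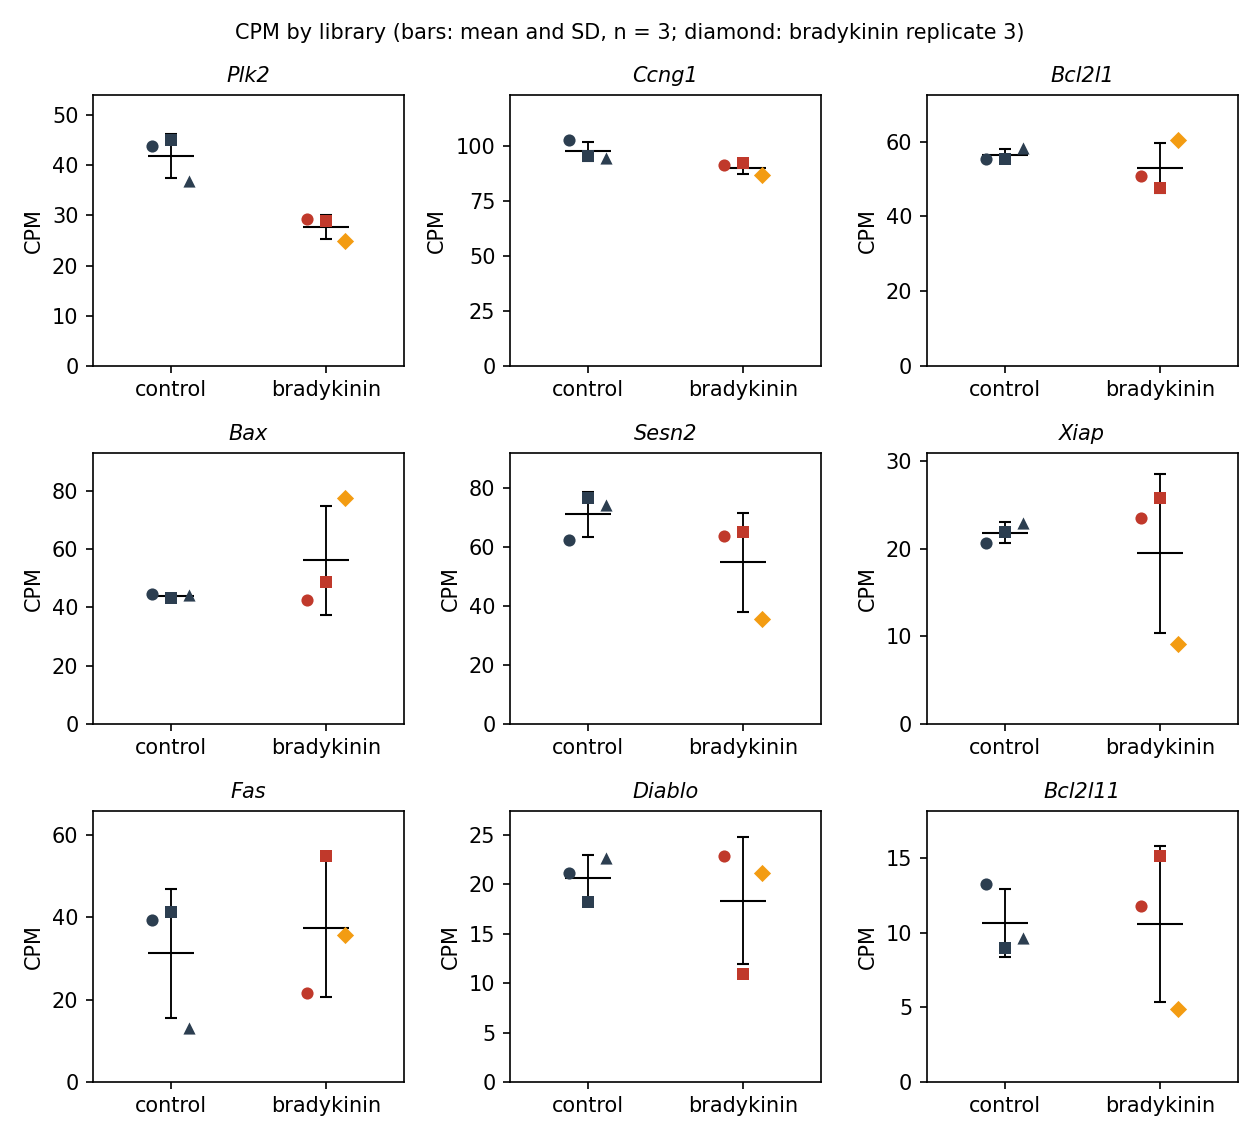
CPM (vertical axes, from 0) of 9 genes in each library, with controls in dark grey, bradykinin replicates 1 and 2 in red and replicate 3 as an orange diamond, and bars for mean and SD of 3 libraries. Plk2 separates the groups, bradykinin replicate 3 stands apart for Bax (77.4 CPM), Sesn2 (35.5 CPM), Xiap (9.11 CPM) and Bcl2l11 (4.88 CPM), and Fas and Diablo scatter within a group.

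Among 6 caspase and apoptosome genes, 0 passed. Casp8, the initiator caspase of death receptors, was at 16.7, 15.8 and 19.1 CPM with bradykinin and at 15.5, 13.5 and 13.7 CPM in controls. Its groups did not overlap, with bradykinin higher, and the difference was 0.27 ± 0.13 in 6 libraries and 0.19 ± 0.11 without bradykinin replicate 3 (edgeR adjusted p = 0.737 and 0.470). Casp9, the initiator caspase of the apoptosome, lay the other way, at 11.6, 12.8 and 12.5 CPM with bradykinin and at 13.6, 17.8 and 12.98 CPM in controls. Its difference did not pass (-0.26 ± 0.16 and -0.27 ± 0.15), and control replicate 2 was above the other controls. Casp6, an executioner caspase, was at 3.70 to 5.74 CPM with bradykinin and 4.19 to 4.77 CPM in controls (0.06 ± 0.21 and 0.08 ± 0.22).

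Apaf1, the scaffold of the apoptosome, was at 35.9, 28.3 and 20.6 CPM with bradykinin, straddling its controls at 31.1, 29.3 and 33.4 CPM. Its log2 fold change also changed sign with bradykinin replicate 3 (-0.15 ± 0.20 and 0.04 ± 0.10). Cycs, which encodes cytochrome c, was at 69.2, 58.5 and 82.2 CPM and at 64.2, 58.8 and 61.9 CPM (0.18 ± 0.14 and 0.05 ± 0.08). Processed copies of Cycs are known in rodent genomes, and whether they share reads with it was not tested. Diablo, which encodes SMAC, an antagonist of caspase inhibitors, was at 22.9, 10.97 and 21.2 CPM in bradykinin replicates 1 to 3 and at 21.2, 18.2 and 22.7 CPM in controls. Bradykinin replicate 2 alone was low, and bradykinin replicate 1 held 2.08 times its level. Diablo did not pass in 6 libraries (-0.18 ± 0.26) or in the 5 (-0.30 ± 0.21, adjusted p = 0.569), whereas with bradykinin replicate 2 as the only treated library it was called lower (-0.92 ± 0.16, edgeR adjusted p = 0.0049), the lone library being assumed to vary like the controls.

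In bradykinin replicates 1 and 2, both inhibitors of apoptosis in this list were above every control, as were 16.2% of all tested genes. Xiap, which binds and blocks caspases directly, was at 23.6 and 25.8 CPM there, above the controls at 20.7, 21.9 and 22.98 CPM, and at 9.11 CPM in bradykinin replicate 3. The log2 fold change was 0.18 ± 0.09 without that library and -0.17 ± 0.34 with it, and neither passed (edgeR adjusted p = 0.403 and 0.860). Birc2, a ubiquitin ligase of TNF receptor complexes, was at 25.5, 27.03 and 29.02 CPM with bradykinin and at 24.5, 24.6 and 23.5 CPM in controls, without overlap (0.17 ± 0.11 and 0.12 ± 0.09, adjusted p = 0.737 and 0.564).

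Bradykinin replicate 3 lay outside the range of the other 5 libraries for 28 of the 35 genes (80%), above in 16 and below in 12. Over all tested genes it lay above the other 5 for 37.9% and below for 37.6%, together 75.5%. In log2 CPM it was more than 0.5 below the mean of the other libraries for 10 of the 35 genes (19.8% of all genes) and more than 0.5 above for 3 (15% of all genes). The lowest were Eda2r (-1.29), Xiap (-1.28) and Bcl2l11 (-1.16), and the highest Gdf15 (0.84), Bax (0.79) and Plk3 (0.54). With that library the median SE of the 35 log2 fold changes was 0.17, and without it 0.10. What sets this library apart was not tested.

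**Figure D4:**
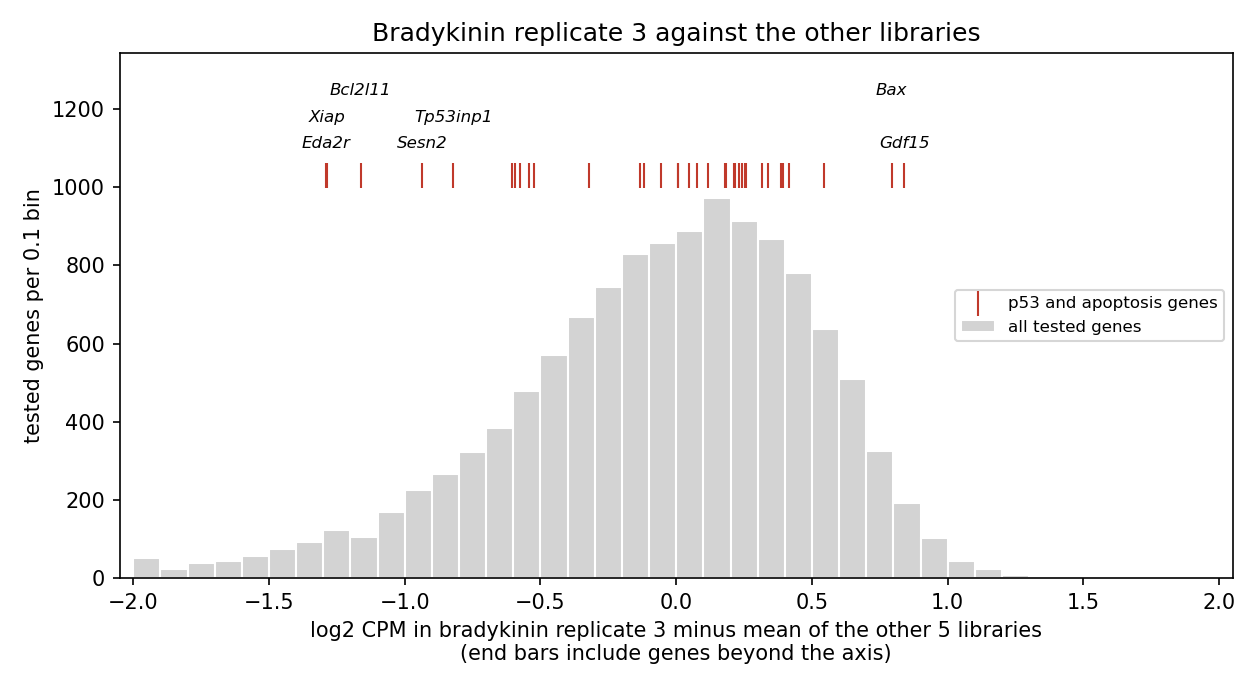
Number of tested genes (vertical axis) by log2 CPM in bradykinin replicate 3 minus the mean of the other 5 libraries (horizontal axis, bins of 0.1), with the 35 p53 and apoptosis genes as red ticks above the bars. The genes of the list spread from -1.29 (Eda2r) to 0.84 (Gdf15), within the span of all tested genes.

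Another 45 genes of the p53 and apoptosis pathways were listed to set beside these, of which 43 had a row and 42 were tested. In 6 libraries 0 passed (0% of all genes) and 3 had an unadjusted edgeR p under 0.05 (6.84% of all genes). Without bradykinin replicate 3, 1 rose and 1 fell, against 1.95% and 1.15% of all genes, and 11 had an unadjusted edgeR p under 0.05 (15.2% of all genes). Their median log2 fold change was 0.14 in 6 libraries and 0.07 in the 5, beside 0.01 and 3.7e-05 for all genes, and 32 and 30 of the 42 were positive, beside 6372 of 12413 and 6269 of 12536 of all genes. The one that fell was Gadd45a, a p53-inducible stress sensor, at 206, 244 and 285 CPM with bradykinin and at 321, 300.2 and 293 CPM in controls (-0.44 ± 0.07 without bradykinin replicate 3, edgeR adjusted p = 0.0027; -0.32 ± 0.13 with it, adjusted p = 0.727). All bradykinin libraries were below all controls, as for Plk2. Among the 42 genes, 2 lay lower in this way and 10 higher, Pcna and Gadd45b included, beside 8.71% and 8.84% of all genes. Without bradykinin replicate 3 there were 3 lower and 15 higher (15.4% and 16.2% of all genes). Pcna, the replication clamp, which p53 also regulates, rose (99.8, 96.6 and 163 CPM with bradykinin and 78.4, 82.1 and 82.4 CPM in controls; 0.28 ± 0.05, adjusted p = 0.0148, and 0.56 ± 0.20, adjusted p = 0.714 with bradykinin replicate 3). The call of Pcna was lost when bradykinin replicate 1, control replicate 1 or control replicate 2 was also left out (edgeR adjusted p = 0.0663, 0.0845 and 0.0724), while Gadd45a passed in all 12 alternatives without bradykinin replicate 3. Gadd45b, a relative of Gadd45a induced by NF-kB, had the smallest p of these 42 genes in 6 libraries and lay the other way from Gadd45a, at 71.9, 72.3 and 87.3 CPM with bradykinin and at 62.7, 61.5 and 60.8 CPM in controls. It did not pass (0.32 ± 0.11, adjusted p = 0.710, and 0.23 ± 0.06, adjusted p = 0.0537 without bradykinin replicate 3).

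Some genes of the list overlap another annotated gene on GRCr8. Whole gene spans were compared, introns included, and overlap of exons was not checked. The labels do not say that strand was kept, so reads from any exon stretch that a pair shares may not be told apart. The overlapping genes of the list whose partner also has a row are Casp8 with Cflar, Bcl2l11 with Acoxl, Diablo with B3gnt4, Gdf15 with Lrrc25, Plk3 with Dynlt4, Mdm4 with Lrrn2 and Pik3c2b, and Bcl2l1 with a ribosomal protein pseudogene. Plk2, Bax and Xiap overlap no other annotated gene.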

How the data were processed

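The authors deposited counts, whole numbers for each Ensembl gene in each of 6 libraries. Per the labels, reads were trimmed with fastp, aligned with HISAT2, and quantified with RSEM. The submitters' processing notes give the build Rnor_6.0 and the versions RSEM 1.3.3, DESeq2 1.34.0, HISAT2 2.2.1, fastp 0.23.2 and Bowtie2 2.4.5. RSEM shares reads among similar genes by estimate, and how its estimates became whole numbers is not stated.

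Symbols came from the table's Entrez identifiers through a RefSeq table of GRCr8, which named 15073 of 17139 rows. GRCr8 also gave the promoter windows and the overlapping genes. The 2 groups were tested in R 4.3.3 with edgeR 4.0.16, after filterByExpr and TMM scaling, by two-sided quasi-likelihood F tests with Benjamini-Hochberg adjustment over 12413 genes (12536 without bradykinin replicate 3). SE is the log2 fold change over the root of F, and intervals use that SE. Deviations of a library use log2 of CPM plus 0.5. The test was checked on simulated counts with the same spread in every library. That check does not cover a library that stands apart, as bradykinin replicate 3 does. DESeq2 1.42.0, limma-voom (limma 3.58.1), other scalings and filters, a replicate block and leaving out each library were alternatives. The members, lists and tests were chosen with earlier results of these data known. All members are named. Of the other pathway genes, those called in either fit are named, and the rule added those of smallest p in 6 libraries.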

Additional observations from a re-analysis of the deposited data

How the results depend on the processing

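In 6 libraries the number of the 35 genes called was 0 under RLE size factors, library totals, limma-voom, both other filters and the replicate block, and 1 with DESeq2 (Plk2). Leaving out 1 library gave 0 to 1 of the 35 and, over all genes, 0 to 388, the higher values being those without bradykinin replicate 3. DESeq2 called 44 genes in all. Without bradykinin replicate 3, where 388 genes were called, the list gave 1 (Plk2) under every scaling, tool and filter and the replicate block. Leaving out a further library gave 0 to 2 of the list and 138 to 333 of all genes, and with no low count filter 681 genes were called. Scaling by library totals turned the split of all calls from 244 higher and 144 lower to 162 higher and 185 lower. Samples of the same replicate number did not deviate alike (correlations of deviations -0.10, -0.02 and -0.06 for numbers 1, 2 and 3). The deviations were from each group's mean, and bradykinin replicate 3 deviated opposite to bradykinin replicates 1 and 2 (-0.83 and -0.8). These correlations therefore cannot decide whether the samples were paired. With the replicate block, 0 genes in 6 libraries (591 at an unadjusted p under 0.05) and 301 without bradykinin replicate 3 were called, and Plk2 had adjusted p = 1.6e-04 in the latter, within a range of 2.7e-05 (no low count filter) to 0.0571 over its alternatives there. Over the 35 genes, log2 fold changes differed in sign from the reported ones in 21 of 455 values over the alternatives in 6 libraries, all by leaving out a library, and in 33 of 420 without bradykinin replicate 3. Among the other pathway genes, whose alternatives were chosen after seeing the data, Pcna lost its call under the replicate block (adjusted p = 0.0538), and Gadd45b gained one with no low count filter (0.0382). Plk2 kept its sign in every alternative run, from -0.68 to -0.53 in 6 libraries and from -0.61 to -0.47 without bradykinin replicate 3. Counts were low for Eda2r, Gdf15, Tp53inp1, Casp6 and Polk, with SE of 0.21 to 0.47 in 6 libraries and 0.21 to 0.27 without bradykinin replicate 3. An SE this large was not confined to low counts, since Fas, with more counts, had 0.46 in 6 libraries.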
